A study of Mus musculus with 2 samples.

Results

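The BCL2 family genes described here are 9 survival and death genes selected by the gene symbol that the platform annotation gives each probe set: the pro-survival Bcl2, Bcl2l1 and Mcl1, the effectors Bax and Bak1, and the BH3-only Bcl2l11, Bid, Bad and Bbc3. Of these, 8 were measured, out of 12393 genes in all, by 23 of the 22690 probe sets on the array. Bax was not analysed here, because no probe set carried its symbol alone. The series compared splenic CD4+ T cells of the arthritis-susceptible strain DBA/1 with those of the arthritis-resistant strain C57BL/6, using the autoantigen glucose-6-phosphate isomerase (GPI) as immunogen. Both groups were immunised with GPI and sampled on day 7, the cells were purified by magnetic sorting, and 1 array was hybridised per strain. Neither label names a transgene or a further treatment, an unimmunised group is not among the samples, and no source used here gives the age or sex of the mice or how many were pooled.

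BCL2 family proteins decide whether the outer mitochondrial membrane stays intact. The pro-survival proteins bind and restrain the effectors BAX and BAK, which otherwise form pores that release cytochrome c and start the caspase cascade. BH3-only proteins are the sensors: they occupy the pro-survival proteins or activate the effectors directly. In T cells, cytokine signals maintain BCL2 and MCL1, antigen receptor stimulation induces BCL-XL, and BIM drives much of the death that ends an immune response.

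With 1 array per strain there was no test, no p-value and no measured variation between mice. Signals are MAS5 intensities as deposited. A signal under its array's median (37.6 for DBA/1 and 38.04 for C57BL/6) was set to that floor. The log2 ratio of DBA/1 over C57BL/6 was then taken. It is a bound wherever 1 side sat at the floor, and only on the scale of the deposited arrays. Repeat measurements came only from genes read by more than 1 probe set. Over 2325 genes with such a pair, the error was 0.31 on the log2 scale per probe set (SD), and 0.33 among 1144 genes whose probe sets had a mean signal of 50 to 250, the range in which most of the members lay. 2 such errors come to 0.66 on the log2 scale, or 1.59-fold. This error compares probe sets on the same 2 arrays, so it holds no variation between mice or repeat arrays. A ratio past 2 probe errors is therefore not shown to be a strain difference. The number of arrays limits the precision of every value below.

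T cell markers were bright on both arrays, and markers of other spleen cells differed between them. Cd3d, a chain of the T cell receptor complex, read 3538 in DBA/1 and 3499 in C57BL/6. Of 9 T cell markers 7 were lower in DBA/1, among them Zap70 (log2 ratio -0.67) and Thy1 (-0.54), and their summed signal was 12026 in DBA/1 and 13014 in C57BL/6. All 12 measured neutrophil markers were higher in DBA/1, with a summed signal of 34867 in DBA/1 and 10731 in C57BL/6. So were all 10 monocyte and macrophage markers (8074 in DBA/1 and 4182 in C57BL/6) and 7 of 8 usable B cell markers. The B cell markers summed to 10035 in DBA/1 and 8178 in C57BL/6, mostly from Cd74 and Ighm, and their median log2 ratio was 1.08. All 5 CD8 T cell markers were lower (382 in DBA/1 and 995 in C57BL/6). All 5 measured dendritic cell markers were higher (4107 in DBA/1 and 1638 in C57BL/6), as were all 3 usable plasma cell markers. NK cell markers were mixed, with 2 higher and 1 lower, and so were erythroid markers, with 1 higher and 2 lower. In such bulk samples fewer cells of a type and less RNA per cell cannot be told apart, and the part of these cells in the ratios below was not tested.

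By sign alone the members split by role, with 1 exception. All 3 pro-survival genes had log2 ratios under 0 (median -0.20, range -0.70 to -0.10), and 4 of 5 pro-apoptotic genes had log2 ratios over 0 (median 0.30, range -0.61 to 0.52). The exception was Bcl2l11, which encodes BIM. Over the 6936 genes above the floor on at least 1 array the median log2 ratio was 0.10, with 60.6% over 0 and 39.4% under 0. The pro-survival median lay 0.50 below the pro-apoptotic median on the log2 scale. That pro-survival median is the ratio of Mcl1, whose probe sets did not share 1 direction. Of the 15 pairs of a pro-survival with a pro-apoptotic gene, 13 had the lower ratio in the pro-survival gene, and the other 2, Bcl2 and Mcl1, each paired with Bcl2l11, had the higher. The pairs reuse the same 8 ratios and are not independent. No single member was 2-fold apart in the probe set that stands for its gene, against 3.84% of these 6936 genes at least 2-fold higher and 1.9% at least 2-fold lower. Of the 8 ratios, 7 lay within 2 probe errors of 0 on the scale of the deposited arrays, all but that of Bcl2l1. That count depends on the scaling. With the arrays rescaled by median centring, quantiles, lowess or trimmed means, Bcl2l11 lay between -0.71 and -0.70. It was then also past 2 probe errors (0.66). Without suffixed probe sets and without rescaling, Bcl2l11 lay at 0.088.

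**Figure D1:**
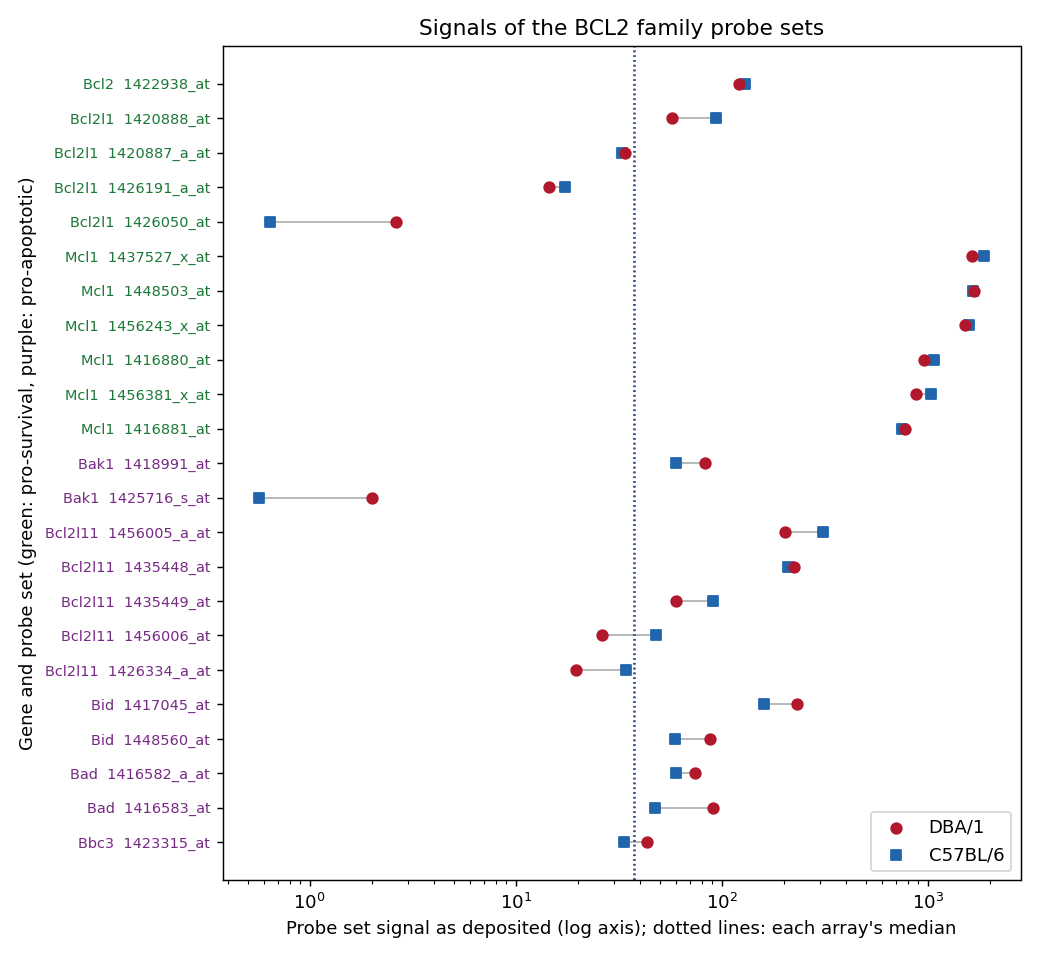
Signals of all 23 BCL2 family probe sets on a log axis, DBA/1 as circles and C57BL/6 as squares, 1 array each, with each array's median signal as a dotted line. The Mcl1 probe sets lie far right of the medians with both arrays close together, and 5 probe sets lie left of both medians.

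Among the pro-survival genes, Mcl1 had the firmest measurement and a small difference. MCL1 is a short-lived protein that T cells need at all stages. Its 6 probe sets were all far above the floor. The probe set 1437527_x_at, which stands for the gene, read 1642 in DBA/1 and 1882 in C57BL/6, and 1448503_at read 1685 in DBA/1 and 1656 in C57BL/6. The log2 ratios of the 6 ran from -0.24 to 0.05, with 4 under 0 and 2 over 0. That spread of 0.29 is about 1 probe error wide, so a strain difference in Mcl1 was not resolved.

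Bcl2, the founding member of the family and a target of interleukin 7 signalling, had 1 probe set, at 121 in DBA/1 and 130 in C57BL/6. Its log2 ratio of -0.10 is smaller than the probe error. Both signals lay above the floor and below the 75th percentile of their arrays (171 for DBA/1 and 162 for C57BL/6), the minimum used for counting differing genes. Among the 3624 genes with a mean signal of 50 to 250 and both signals above the floor, 32.3% had a lower ratio than Bcl2.

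Bcl2l1 encodes BCL-XL, which activated T cells induce. It had the lowest ratio of the 8 genes. The probe set 1420888_at read 57.6 in DBA/1 and 93.5 in C57BL/6, which is 1.62-fold lower in DBA/1 (log2 ratio -0.70). Of the genes in the same signal range, 5.16% had a lower ratio. The difference slightly exceeds 2 probe errors, but it rests on 1 dim probe set: the other 3 of the gene were under the floor on both arrays. Of those, 1420887_a_at read 33.9 in DBA/1 and 32.8 in C57BL/6, and 1426191_a_at read 14.6 in DBA/1 and 17.4 in C57BL/6. The log2 ratio of Bcl2l1 was -0.34 with the floor at the 60th percentile and -0.49 as log2(signal + 32), both short of 1.5-fold. Rescaling the arrays moved it the other way, to between -0.81 and -0.73.

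Among the effectors, Bak1 encodes BAK, which resides in the outer mitochondrial membrane. Its probe set 1418991_at read 83.04 in DBA/1 and 60.4 in C57BL/6, a log2 ratio of 0.46 (1.38-fold higher in DBA/1). The other probe set, 1425716_s_at, was close to background at 2.01 in DBA/1 and 0.569 in C57BL/6. Of the genes with a mean signal of 50 to 250, 81.7% had a lower ratio than Bak1. With the floor at the 60th percentile its log2 ratio was 0.20.

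Bid was the pro-apoptotic gene with the closest repeat. BID is cut by caspase 8 and so links death receptors to the mitochondrion. Its probe set 1417045_at read 232 in DBA/1 and 161 in C57BL/6 (1.44-fold higher in DBA/1, log2 ratio 0.52). The second, 1448560_at, read 87.6 in DBA/1 and 59.5 in C57BL/6 (1.47-fold, log2 ratio 0.56). The ratios of the 2 probe sets differed by 0.03. Of the genes in the same signal range, 84.7% had a lower ratio.

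Bad, whose product is held inactive by survival kinases and binds BCL2 and BCL-XL, was also higher in DBA/1 in both probe sets, by unequal amounts. The probe set 1416582_a_at read 74.3 in DBA/1 and 60.2 in C57BL/6 (log2 ratio 0.30). The probe set 1416583_at read 90.8 in DBA/1 and 47.5 in C57BL/6 (1.91-fold, log2 ratio 0.93), the highest ratio of any member probe set. Their difference of 0.63 exceeds the 0.47 SD of such differences in this signal range. With the floor at the 60th percentile the log2 ratio of Bad was 0.039. Bbc3 encodes PUMA, a target of p53 and of FOXO factors. Its single probe set read 43.2 in DBA/1, and in C57BL/6 it read 33.5, which is under the floor. Bbc3 was thus at least 1.14-fold higher in DBA/1 on the scale of the deposited arrays (log2 ratio 0.18). The ratio is smaller than 1 probe error, and it was 0.081 with median centring and 0.076 with trimmed means.

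Bcl2l11 went against the other pro-apoptotic genes. BIM binds every pro-survival member and is the main BH3-only protein in the removal of activated and autoreactive T cells. The probe set 1456005_a_at read 203 in DBA/1 and 309 in C57BL/6 (1.52-fold lower in DBA/1, log2 ratio -0.61). The probe set 1435449_at read 59.9 in DBA/1 and 90.4 in C57BL/6 (1.51-fold lower, log2 ratio -0.59). A further probe set, 1456006_at, read 26.3, under the floor, in DBA/1 and 47.8 in C57BL/6, at least 1.27-fold lower. These 3 had the same direction. The probe set 1435448_at differed from them, with 224 in DBA/1 and 210 in C57BL/6 (log2 ratio 0.088), at a signal as far from the floor as that of 1456005_a_at. The fifth, 1426334_a_at, was under the floor on both arrays, at 19.6 in DBA/1 and 34.2 in C57BL/6. The 4 usable ratios spanned 0.69, and the direction of Bcl2l11 is therefore that of most of its probe sets, not of all. The transcript that each of them reads and any strain variant under their probes were not analysed here.

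**Figure D2:**
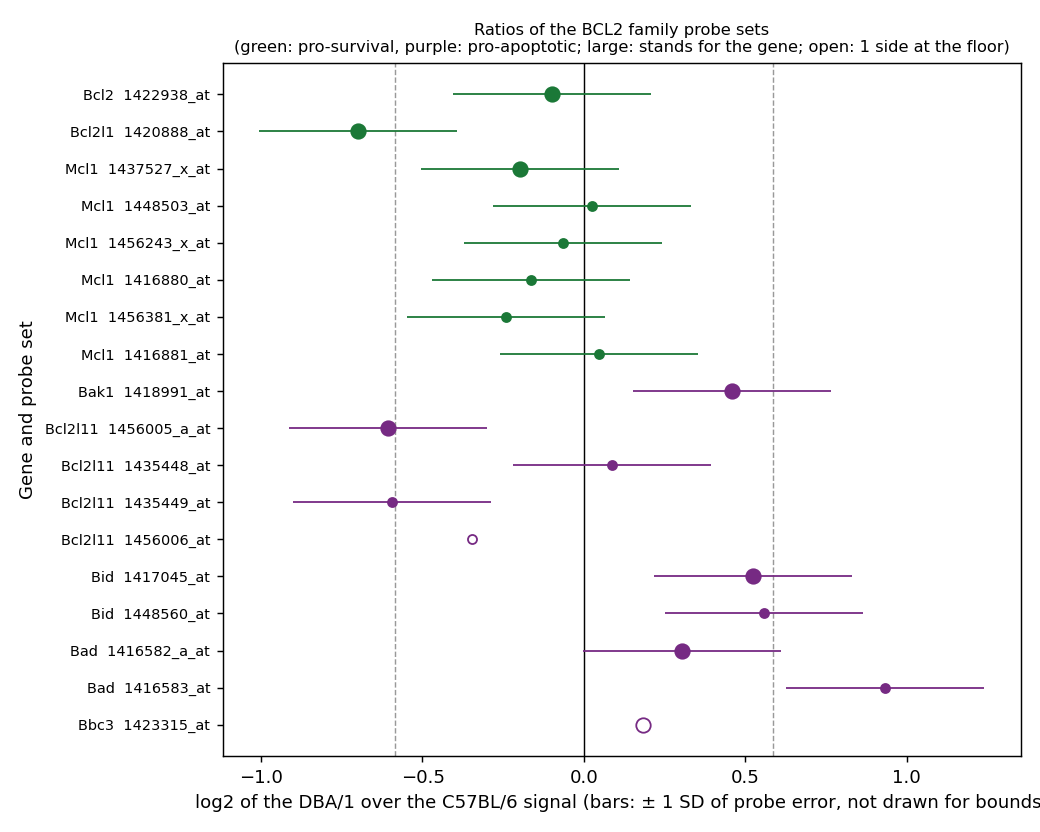
Log2 ratios of DBA/1 over C57BL/6 for the 18 member probe sets above the floor on at least 1 array, with bars of 1 SD of probe error (0.31) and dashed lines at 1.5-fold. Pro-survival probe sets (green) lie between -0.70 and 0.05, and pro-apoptotic ones (purple) between -0.61 and 0.93, with 3 of the 4 Bcl2l11 probe sets left of 0.

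Counted over probe sets instead of genes, 6 of 8 usable pro-survival probe sets had log2 ratios under 0 and 7 of 10 usable pro-apoptotic ones had log2 ratios over 0. Over all 10889 usable probe sets 42% were under 0 and 58% over 0. The pro-survival count is mostly Mcl1, with 6 of the 8 probe sets. All 6 usable probe sets of Bak1, Bid, Bad and Bbc3 had log2 ratios over 0, with a median of 0.49. This group leaves out Bcl2l11, already seen to be under 0, and 4 of the 6 are the probe sets that stand for their genes. The count is therefore no further support for a split by role. Only 3 members, Mcl1, Bcl2l11 and Bid, had a signal that reached the 75th percentile of an array. Of these, 1 was at least 1.5-fold lower in DBA/1 (Bcl2l11) and none was 1.5-fold higher. Among the 3920 genes that reached this minimum, 4.97% were at least 1.5-fold lower, 12.3% at least 1.5-fold higher, 1.99% at least 2-fold lower and 3.98% at least 2-fold higher. Without this minimum Bcl2l1 was the other member at least 1.5-fold lower, against 5.97% at least 1.5-fold lower and 11.8% at least 1.5-fold higher among the 6936 genes above the floor on at least 1 array.

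**Figure D3:**
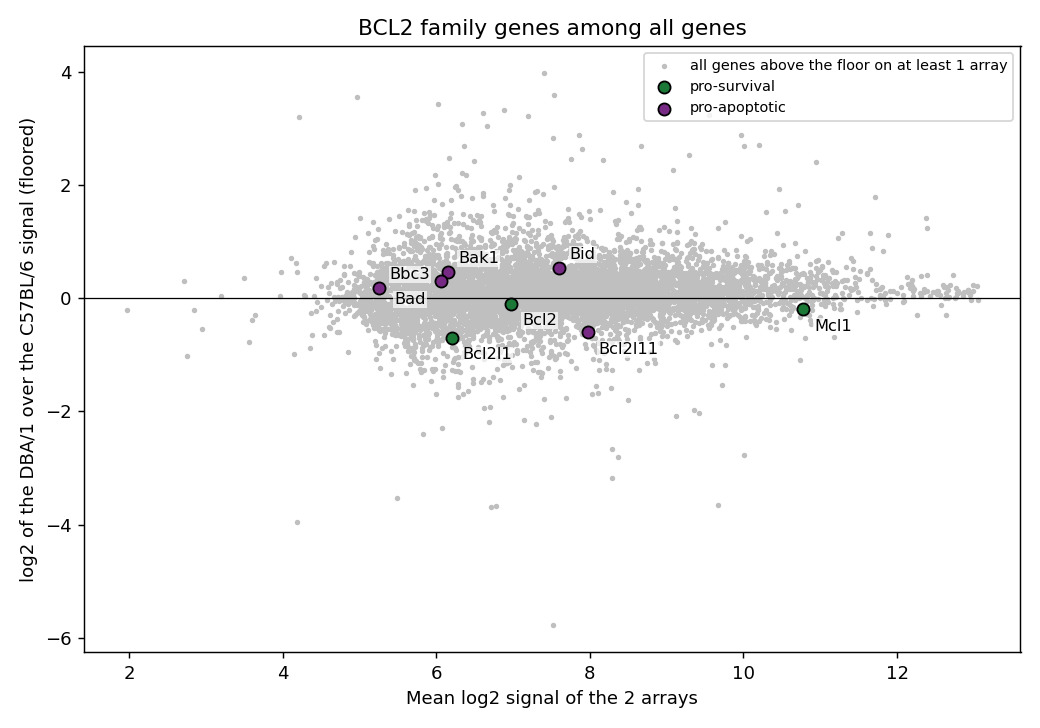
Mean log2 signal against the log2 ratio of DBA/1 over C57BL/6 for 6936 genes, with the 8 BCL2 family genes marked by role. All 8 lie inside the cloud of genes of like signal, Bcl2l1 and Bcl2l11 near its lower edge and Mcl1 in its bright, narrow part.

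Promoter sequence is shown for the BH3-only genes Bcl2l11 and Bbc3, both known FOXO targets, whose ratios had opposite signs, and for Bid, whose 2 probe sets gave nearly the same ratio. The windows run from 250 bases before to 50 bases after a transcription start in RefSeq (build GRCm38.p6, the C57BL/6J reference), with FOXO cores (GTAAACA) and GC boxes (GGGCGG), on both strands, in capitals. The Bcl2l11 window is chr2:128125788-128126087 on the plus strand, the Bbc3 window is chr7:16310011-16310310 on the plus strand, and the Bid window is chr6:120916775-120917074 on the minus strand.
Bcl2l11: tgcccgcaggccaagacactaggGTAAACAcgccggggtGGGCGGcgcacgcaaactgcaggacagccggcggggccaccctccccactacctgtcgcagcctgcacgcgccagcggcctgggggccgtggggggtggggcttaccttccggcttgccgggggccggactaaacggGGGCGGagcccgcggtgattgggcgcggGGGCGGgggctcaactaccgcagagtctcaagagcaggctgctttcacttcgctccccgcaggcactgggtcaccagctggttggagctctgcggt
Bbc3: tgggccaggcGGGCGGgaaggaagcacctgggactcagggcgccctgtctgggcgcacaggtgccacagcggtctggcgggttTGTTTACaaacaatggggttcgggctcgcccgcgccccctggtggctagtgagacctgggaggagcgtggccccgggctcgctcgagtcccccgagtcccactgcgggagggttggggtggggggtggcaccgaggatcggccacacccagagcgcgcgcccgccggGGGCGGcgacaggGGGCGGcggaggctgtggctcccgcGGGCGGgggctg
Bid: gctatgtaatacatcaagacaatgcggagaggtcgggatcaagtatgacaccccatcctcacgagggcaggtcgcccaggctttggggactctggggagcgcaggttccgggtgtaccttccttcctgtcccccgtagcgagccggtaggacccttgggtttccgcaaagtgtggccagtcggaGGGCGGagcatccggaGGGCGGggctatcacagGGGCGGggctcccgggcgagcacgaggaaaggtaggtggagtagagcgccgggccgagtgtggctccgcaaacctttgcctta
The FOXO core begins 227 bases before the start in Bcl2l11 and, on the opposite strand, 167 bases before it in Bbc3. It occurs in 2 of the 15 windows that RefSeq gives the 9 members, 1 of 2 for Bcl2l11 and 1 of 3 for Bbc3, and in 3.65% of all 32851 windows. The Bid window holds 3 GC boxes, which occur in 10 of the 15 member windows and in 35.7% of all windows. A STAT site (TTCNNNGAA), a cyclic AMP response element (TGACGTCA) and a TATA box (TATAAA) were in none of the 15, against 8.3%, 1.79% and 13.6% of all windows. These matches describe letters in the reference of 1 strain and say nothing of binding.

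The other BCL2 family genes were mostly under the floor. Of 11 measured, 8 were under the floor on both arrays, among them the BH3-only Bmf, Bik and Hrk and the pro-survival Bcl2l2. Pmaip1 (NOXA), the BH3-only partner of MCL1, read 375 in DBA/1 and 461 in C57BL/6, a log2 ratio of -0.30. Bcl2l13 lay at 0.38. Bnip3, a mitophagy receptor with a BH3-like stretch, read 75.1 in DBA/1 and 30.1 in C57BL/6, where it was below the floor, and was at least 1.97-fold higher in DBA/1. The Bcl2a1 copies share probe sets that carry several symbols and were given no value.

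Downstream of the mitochondrion, 8 of 9 apoptosome and caspase genes had log2 ratios over 0, with a median of 0.43, against 60.6% of all usable genes over 0 and their median of 0.10. Casp6, an executioner caspase, read 292 in DBA/1 and 170 in C57BL/6 (1.71-fold higher in DBA/1). Cycs, the cytochrome c that leaves the mitochondrion, read 1425 in DBA/1 and 955 in C57BL/6 (log2 ratio 0.58), with its other 2 probe sets at 0.35 and 0.68. Apaf1, the scaffold that cytochrome c activates, lay at 0.46 in both of its usable probe sets. Casp9, the caspase of the apoptosome, was under the minimum signal, at 72.3 in DBA/1 and 39.97 in C57BL/6. None was 2-fold apart, and 1 of the 6 that reached the minimum signal was at least 1.5-fold higher, against 12.3% of all genes at that minimum.

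Caspase inhibitors had a median of 0.21 over 5 genes. Birc5 (survivin), which also acts in mitosis, read 454 in DBA/1 and 252 in C57BL/6 (1.80-fold higher in DBA/1). Xiap, a direct caspase inhibitor, lay at 0.26 with its second probe set at -0.10, and Birc6 at -0.37. In the death receptor pathway 5 of 7 usable genes had log2 ratios under 0 (median -0.13), against 39.4% of all usable genes. Cflar, which holds back caspase 8, lay at -0.28 with other probe sets at -0.32 and 0.33, Fas at -0.26 and Tnfrsf1a at -0.13. Fasl, the ligand of Fas, was under the minimum signal, at 45.3 in DBA/1 and 134 in C57BL/6 (2.96-fold lower in DBA/1), with its second probe set at -0.64. Cytotoxic cells express Fasl, and the CD8 T cell markers were lower in DBA/1 beside it (median -1.06); their part in its ratio was not tested.

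Genes upstream of the family showed few differences of size. Among p53 and its targets the median was -0.003 over 10 usable genes, with none at least 1.5-fold apart in the probe set used. Ccng1 lay at 0.47, Ei24 at 0.42 and Trp53inp1 at -0.34, with a second probe set of Trp53inp1 at -1.09. Of the cytokine receptors and their JAK and STAT5 partners, Il2rb, a receptor chain for interleukins 2 and 15, read 201 in DBA/1 and 483 in C57BL/6 (2.41-fold lower in DBA/1), with its second probe set at -0.46. Beside it, the CD8 T cell markers were lower in DBA/1 by a median log2 ratio of -1.06. They ran from -2.41 for Cd8b1, which was under the floor in DBA/1, to -0.56 for Cd8a. The second probe set of Cd8a lay at -0.15. The part of such cells in the ratio of Il2rb was not tested. Jak3 lay at 0.48 and Stat5a at -0.28. Il7r, the receptor chain for interleukin 7, was close to equal, at 1612 in DBA/1 and 1642 in C57BL/6.

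FOXO factors and kinases that act on the members had a median of 0.17 over 8 genes, and none was 1.5-fold apart in the probe set used. Foxo3 lay at 0.30 with its second probe set at -0.61, so its direction was not settled. The survival kinases Pim1 and Pim2, which phosphorylate BAD, lay at 0.36 and 0.33. A second probe set of Pim1 lay at 1.03. All 4 usable genes for ubiquitin enzymes that act on MCL1 or BIM had log2 ratios under 0 in the probe set used (median -0.29). Among all usable genes 39.4% were under 0. Usp9x, which stabilises MCL1, lay at -0.31 and Huwe1, which marks it for degradation, at -0.14. Other probe sets went the other way, at 0.46 for Fbxw7 and up to 0.13 for Usp9x. Over the 8 lists, 53 genes were usable and are no members. Their median log2 ratio was 0.03, with 27 over 0 and 26 under 0, against 60.6% over 0 among all 6936 genes.

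**Figure D4:**
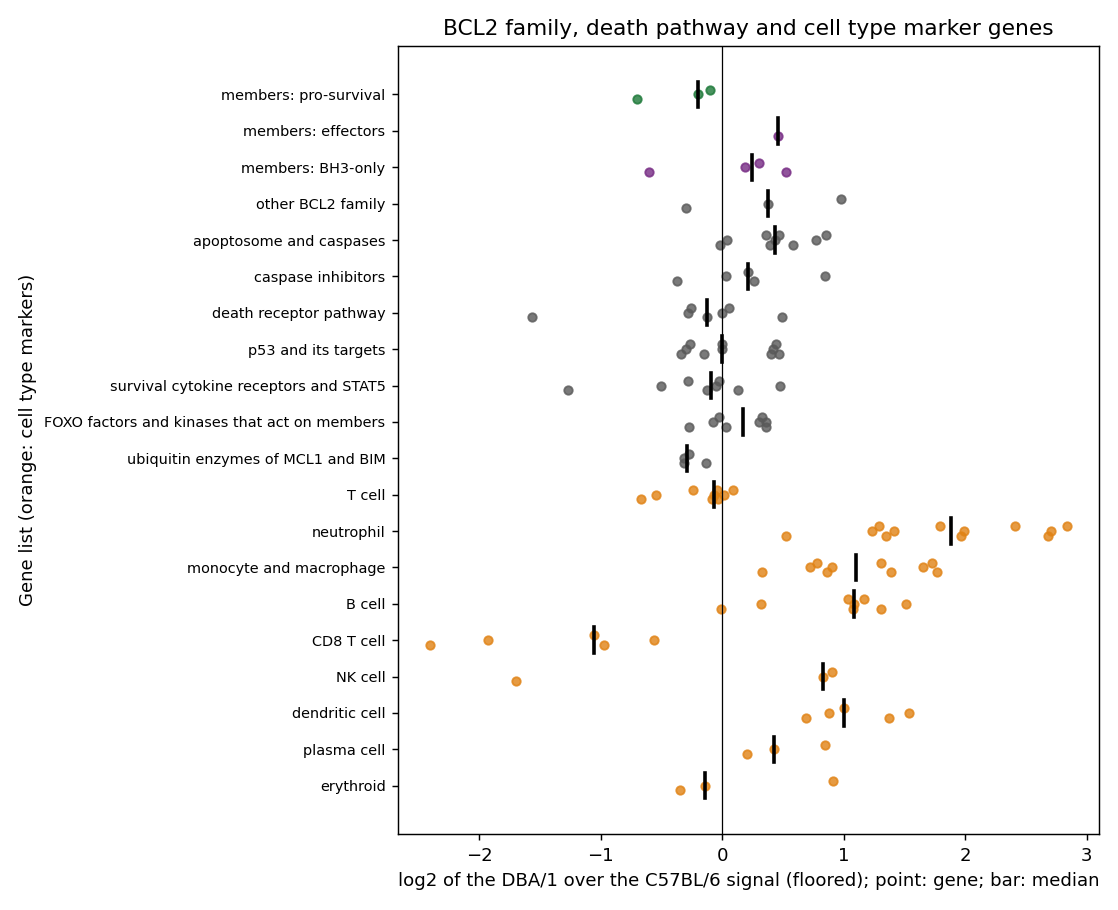
Log2 ratios of DBA/1 over C57BL/6 by gene list, 1 point per usable gene and a bar at the median. Members and pathway genes lie between -0.70 and 0.98 apart from Il2rb (-1.27) and Fasl (-1.56), while neutrophil markers (median 1.88) lie to the right and CD8 T cell markers (median -1.06) to the left.

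The median log2 ratio over genes above both floors was 0.10 on the deposited arrays. Whether this offset came from scaling or from the RNA of the samples was not tested. Median centring lowered the ratios of all members by about that amount. Across 10 alternative settings the pro-survival median ran from -0.37 to -0.10 and the pro-apoptotic median from 0.12 to 0.46. The pro-survival median stayed below the pro-apoptotic one in all 10, by 0.32 to 0.66. Median centring and trimmed means shift every log2 ratio by the same amount, so they could not change this difference. The other settings reprocess the same arrays and members, so the 10 are not independent checks of a split by role. Bcl2l11 turned to 0.088 without suffixed probe sets, where 1435448_at stands for it, and Mcl1 to 0.03, where 1448503_at does.

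**Figure D5:**
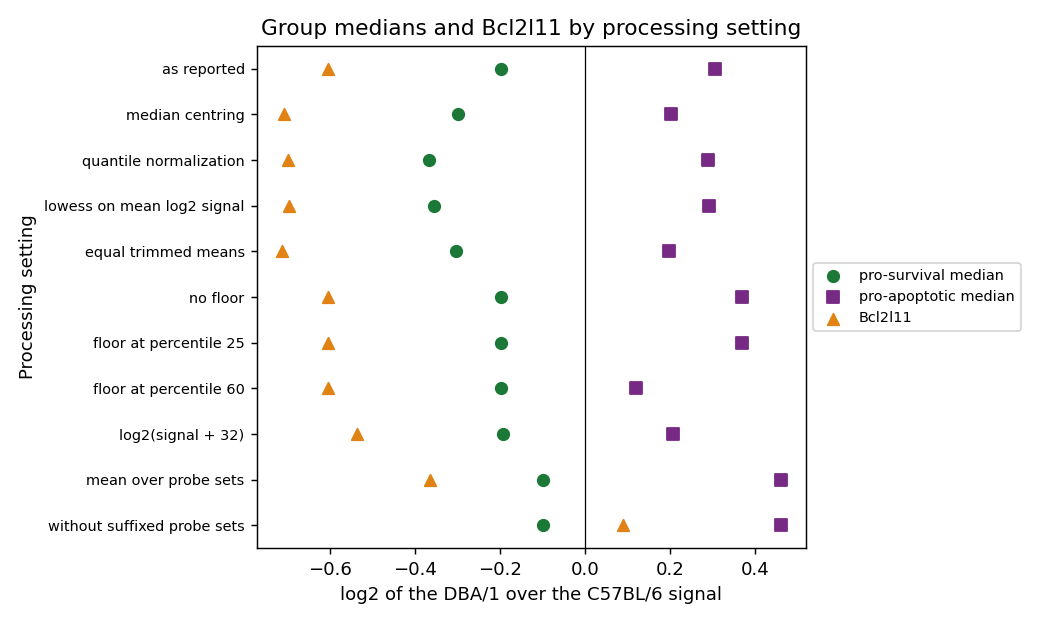
Median log2 ratio of DBA/1 over C57BL/6 of the pro-survival and pro-apoptotic members, and the ratio of Bcl2l11, as reported and under 10 alternative settings. The medians keep their sides of 0 in every setting drawn, and Bcl2l11 lies at 0.088 without suffixed probe sets and under 0 elsewhere.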

How the data were processed

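RNA of splenic CD4+ T cells was measured on 2 arrays, 1 per strain. The authors deposited linear probe set intensities, made with MAS5 per the submitters' processing notes. The version, scaling target and genome build behind them are not stated in the sources used here, and the deposited table holds no detection calls. MAS5 signals near background are unstable, so signals were floored at each array's median. The 2% trimmed mean was 146 for DBA/1 and 136 for C57BL/6.

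Of the 22690 probe sets, 64 were controls. Exactly 1 gene symbol was given for 20380 and several for 691, which were left out. The symbols of all 23 member probe sets matched RefSeq (GRCm38.p6) through Entrez identifiers. A gene was represented by its brightest probe set (mean log2 signal of both arrays). Log2 ratios are DBA/1 over C57BL/6. Counts at 1.5-fold and 2-fold said to be at the minimum signal need a signal at or above the 75th percentile of its array. The other such counts cover usable genes, those above the floor on at least 1 array. Gene lists and members were chosen with earlier results of these data known. All members are named. Of each pathway list, the 3 largest ratios among genes at the minimum signal are named. Of markers, the brightest T cell and B cell genes and the sums of some lists are given. Those named otherwise (Bmf, Bik, Hrk, Bcl2l2, Bcl2l13, Bnip3, Casp9, Fasl, Il7r, Fbxw7, Zap70, Thy1, Ighm, Cd8a, Cd8b1) were chosen after their values were seen, as was the range of 50 to 250. Ratios were computed with Python 3.11.15, numpy 2.4.6 and pandas 2.3.3, lowess with statsmodels 0.14.6, and the code was tested on simulated data. Alternatives covered scaling (median centring, quantile, lowess with span 0.3, trimmed means), the floor (none, percentiles 25 and 60), log2(signal + 32), the minimum signal (percentiles 50 and 90) and the probe sets used.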

Additional observations from a re-analysis of the deposited data

How the results depend on the processing

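No member was at least 2-fold apart under any of the 12 settings tried. The number of members at least 1.5-fold apart at the minimum signal was 1 as reported, 2 with the minimum at percentile 50, and 0 with the minimum at percentile 90, with log2(signal + 32), with the mean over probe sets and without suffixed probe sets. The log2 ratio of Bcl2l11 reversed to 0.088 without suffixed probe sets, because another probe set then stands for the gene, and was negative in the other 9 settings that bear on it. Bcl2l1 fell short of 1.5-fold with the floor at percentile 60 (-0.34), which lifts its DBA/1 signal, and with log2(signal + 32) (-0.49). Under the scaling settings it lay between -0.81 and -0.73. Bad lay at 0.039 with the floor at percentile 60, and reached 0.62 as the mean over probe sets and 0.93 without suffixed probe sets. Mcl1 lay at 0.026 without suffixed probe sets and under 0 in the other 9 settings. Bcl2, Bak1, Bid and Bbc3 kept their direction, Bbc3 in the 9 settings that gave it a value. Over the 10 settings the pro-survival median ran from -0.37 to -0.10 and the pro-apoptotic median from 0.12 (floor at percentile 60) to 0.46. No paired analysis was possible because each strain has 1 array. Signal over background limits Bcl2l1, Bak1, Bad and Bbc3 most, the members with the lowest signals.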
